A study of Mus musculus with 28 samples.

Results

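Ribosome-bound mRNAs of retinal ganglion cell (RGC) axons were compared between E17.5, when the axons are elongating, and P0.5, when they branch in the superior colliculus (SC). The comparison rested on 4 libraries from Cre-positive SC, 2 of each stage. A gene entered when it had at least 1 FPKM (a fragment count scaled to transcript length and library size) in 2 or more of these 4 libraries, and 4046 of the 23995 genes in the files did so. Its change was the difference of the mean log2(FPKM + 1), P0.5 minus E17.5, and it was also noted whether both P0.5 libraries lay above or below both E17.5 libraries. Each change was then set beside the change in 4 Cre-negative SC libraries of the same stages.

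RGCs are the projection neurons of the retina, and their axons carry visual information to the SC, a midbrain centre. An axon that has reached its target stops elongating, forms side branches and begins to build presynaptic terminals. Growing axons hold ribosomes and mRNAs and make part of their proteins locally, far from the cell body.

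The study used axon-TRAP, in which RiboTag knock-in mice are crossed with Pax6-alpha-Cre mice so that the ribosomal protein RPL22 of Cre-expressing cells carries an HA tag. All mice were of the C57BL/6 strain, and the series held 28 samples. In Cre-positive SC the tagged ribosomes come from retinal axons, while in Cre-negative littermates no ribosome is tagged and the HA immunoprecipitate is background. Cre-positive retina of the same stages, 2 libraries each, gave the translatome that includes the cell bodies. The 4 SC groups were therefore Cre-positive E17.5, Cre-positive P0.5, Cre-negative E17.5 and Cre-negative P0.5, each of the RiboTag background and each with 2 libraries. The Cre line acts in progenitors of the peripheral retina, which make neurons other than RGCs as well, so that only the projection to the SC selects for RGCs. Several SCs were pooled for a library, and the precipitated mRNA was reverse-transcribed and amplified by PCR before sequencing. In such bulk samples fewer axons and less ribosome-bound RNA per axon cannot be told apart. Replicate samples may differ by amplification as well as by animals, and the p-values measure only the spread between these samples.

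The E17.5 libraries stood apart from each other. Over the 4046 genes the Pearson correlation of log2(FPKM + 1), a description across genes that share these libraries, was 0.52 between the 2 Cre-positive libraries of E17.5 and 0.90 between those of P0.5. Cre-positive E17.5 replicate 2 correlated at 0.84 with Cre-negative E17.5 replicate 2, more closely than with its own replicate, and at 0.72 to 0.77 with the retina libraries. Cre-positive E17.5 replicate 1 correlated at 0.58 with Cre-negative E17.5 replicate 1, which was the shallowest library. The spacing of low FPKM values gave an estimated 483000 fragments for that library and 6142000 to 13890000 for the other SC libraries of these stages. For a transcript of 2 kb, 3 fragments corresponded to between 0.124 and 0.238 FPKM in the Cre-positive libraries, and to 3.11 FPKM in the shallowest Cre-negative one. These floors cover counting error only. Genes at 1 FPKM or more numbered 2419 and 2480 in the Cre-positive libraries of E17.5 and 3866 and 3788 in those of P0.5. In the Cre-negative libraries they numbered 4003 and 2188 at E17.5 and 1586 and 1646 at P0.5. The 4003 were in the shallowest library. Of 82 genes for cytosolic ribosomal proteins, which every cell uses, 19 and 34 were listed at exactly 0 in the Cre-positive E17.5 libraries and 15 and 13 in the Cre-positive P0.5 libraries. A value of 0 is therefore reported only as listed at 0.

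**Figure D1:**
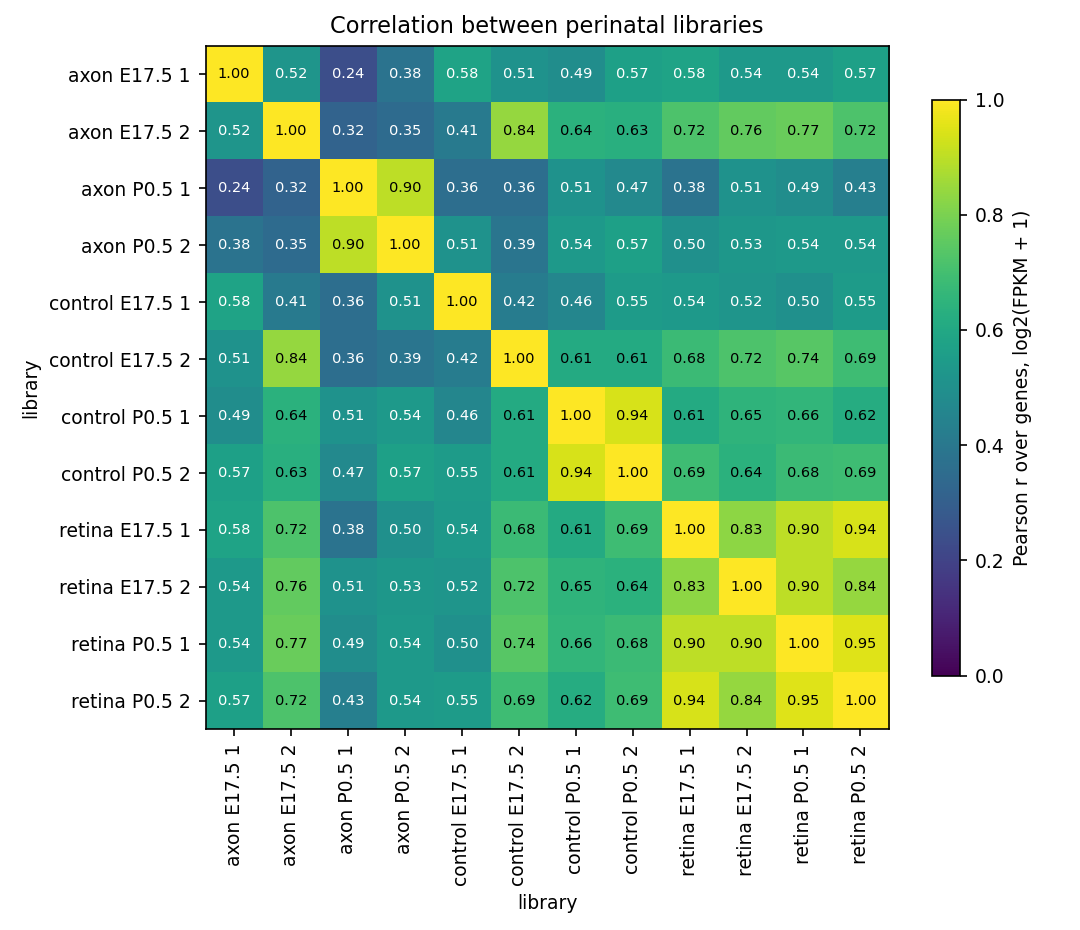
Pearson correlation of log2(FPKM + 1) over 4046 genes between 12 perinatal libraries, where axon stands for Cre-positive SC and control for Cre-negative SC, and the last digit is the replicate. The 2 axon libraries of P0.5 correlate at 0.90, those of E17.5 at 0.52, and axon E17.5 replicate 2 correlates at 0.84 with control E17.5 replicate 2.

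The labelled source was checked against marker genes. Of 15 RGC markers, 6 passed the filter. Pou4f1, a transcription factor of RGCs, had 80.3 and 3501 FPKM in the Cre-positive libraries of E17.5 and 230.5 and 86.0 FPKM in those of P0.5, but also 66.5 and 2060 FPKM and 704 and 191 FPKM in the Cre-negative libraries, so that its levels with and without Cre overlapped. The defining RGC markers Thy1 and Sncg were listed at 0 in both Cre-positive P0.5 libraries, and Rbpms in all 4. Slc17a6, a vesicular glutamate transporter, had 0 and 0.0186 FPKM at E17.5 and 12.2 and 5.13 FPKM at P0.5, against 1.46 and 0.223 FPKM in the Cre-negative P0.5 libraries. In retina, which includes the RGC cell bodies, it had 0 and 0.159 FPKM at E17.5 and 0.0338 and 0 FPKM at P0.5. Its level in Cre-positive SC does not by itself identify RGC axons. Rpl22, whose product carries the tag, had 12.7 and 0.0391 FPKM at E17.5 and was listed at 0 in both P0.5 libraries, with and without Cre. Cre recombination switches the RiboTag allele of Rpl22 to its HA-tagged form, and the FPKM of the gene does not separate the forms. Its mRNA level is therefore no check of the labels.

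From E17.5 to P0.5 many more genes rose than fell in Cre-positive SC. Both P0.5 libraries lay above both E17.5 libraries for 2344 genes (57.9%) and below them for 393 genes (9.71%), and 1309 genes overlapped. By limma's moderated test with Benjamini-Hochberg adjustment over all 4046 genes, 1455 genes rose (36.0%) and 118 fell (2.92%) at an adjusted p under 0.05. The median change over all genes tested was 2.27 on the log2(FPKM + 1) scale. With median-ratio scaling of the libraries the median change was 1.87, a shift of -0.391, and all changes given here contain that common part.

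The filter shaped these counts. Of the 1455 genes that rose, 1291 (88.7%) had no E17.5 library at 1 FPKM and so entered only through P0.5, where they had to be higher, and 796 of them were listed at 0 in both E17.5 libraries. Among the 118 that fell, 99 had no P0.5 library at 1 FPKM and 76 were listed at 0 in both. For such genes the size on the log2(FPKM + 1) scale depends on the pseudocount of 1 and is not a fold. The spread of a gene was estimated over all 8 SC libraries. A group listed at 0 in both libraries adds no spread, which keeps the SE and the p-value small. A small p-value for such a gene is therefore not a measure of agreement between measured replicates alone. When only the 2193 genes with 1 FPKM in at least 1 Cre-positive library of each stage were tested, an alternative chosen after seeing the data, limma called 0 genes higher and 0 lower, with 247 higher and 19 lower at an unadjusted p under 0.05. Without Cre-positive E17.5 replicate 1 or 2, 1173 or 1169 genes rose and 96 or 143 fell. Without Cre-positive P0.5 replicate 1 or 2, 1048 or 1127 rose and 43 or 35 fell, and without both E17.5 SC libraries of the same number 2036 or 1790 rose and 281 or 390 fell. A pair of genes just inside the filter was Ubqln4, with 1.096 and 1.003 FPKM at P0.5, and Ube2d2a, with 3.09 and 1.005 FPKM at E17.5. Just outside it were Deptor, with 0.998 and 1.51 FPKM at P0.5, and Fam175a, with 5.28 and 0.997 FPKM at P0.5.

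**Figure D2:**
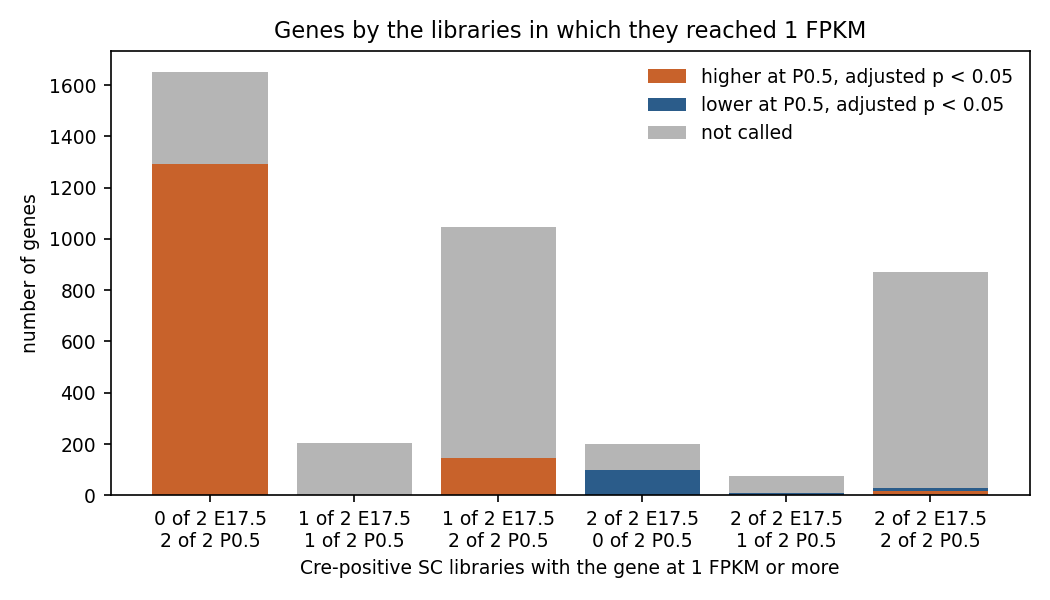
Number of genes, of 4046, by how many of the 2 Cre-positive SC libraries of each stage held the gene at 1 FPKM or more, with the genes called higher (orange) or lower (blue) at P0.5 at an adjusted p under 0.05 and those not called (grey). The tallest bar holds 1651 genes below 1 FPKM in both E17.5 libraries, of which 1291 were called higher, and of the 870 genes at 1 FPKM in all 4 libraries 18 were called higher and 11 lower.

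In the Cre-negative libraries the median change was close to 0. Over the same genes their median change was -0.11, both P0.5 libraries lay above both E17.5 libraries for 470 genes (11.6%) and below for 622 genes (15.4%), and limma called 0 higher (0%) and 0 lower (0%). At an unadjusted p under 0.05 it found 188 higher and 272 lower in Cre-negative SC, and 71 and 44 genes were called when all 16 SC libraries were fitted together. In a test of the difference itself, the change in Cre-positive minus the change in Cre-negative SC, 1215 genes (30.0%) rose more in Cre-positive SC and 38 (0.939%) changed the other way. Without Cre-negative P0.5 replicate 1 or 2 the first count was 446 or 436. Of the 1455 genes that rose, 1152 were also among these 1215, and of the 118 that fell, 35 were among the 38. The filter read the Cre-positive libraries alone. It let in 1651 of the 4046 genes only through Cre-positive P0.5, where they had to be higher. The excess of 1215 over 38 is therefore set in part by the filter. With 1 FPKM required in at least 1 Cre-positive library of each stage, limma called 0 genes in either direction. At P0.5, both Cre-positive libraries exceeded both Cre-negative libraries for 1351 of the 1455, and 1264 (86.9%) had no Cre-negative P0.5 library at 1 FPKM. The 1455 genes were called on these same Cre-positive P0.5 libraries, and 1291 of them entered only through P0.5. The Cre-negative P0.5 libraries held 1586 and 1646 genes at 1 FPKM in all. The counts 1351 and 1264 are therefore a description and no test of dependence on Cre. For 168 of the 1455 genes the Cre-negative libraries of P0.5 also lay above those of E17.5. Of the 118 genes that fell with Cre, the Cre-negative libraries of P0.5 lay below those of E17.5 for 42 and above them for 10.

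**Figure D3:**
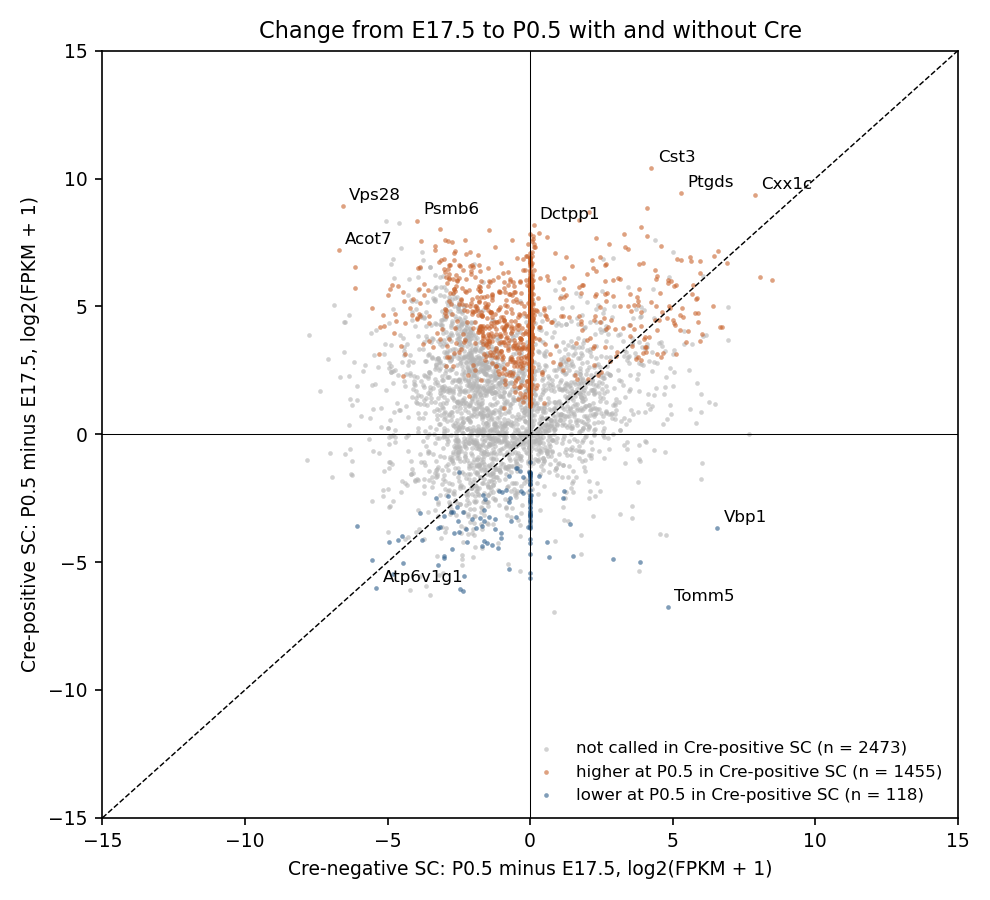
Change from E17.5 to P0.5 in log2(FPKM + 1), with Cre-negative SC on the horizontal and Cre-positive SC on the vertical axis, 1 point for each of 4046 genes, orange for genes called higher and blue for genes called lower in Cre-positive SC, and a dashed line of equal change. Vps28, Psmb6 and Acot7 lie at the upper left, higher with Cre and lower without it, Cxx1c lies near the dashed line, and Tomm5 and Vbp1 lie at the lower right.

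In retina, which includes the cell bodies, the median change of the same genes was -0.31, and limma called 0 genes higher (0%) and 0 lower (0%), with 5 higher and 51 lower at an unadjusted p under 0.05. The change in Cre-positive SC exceeded that in retina for 1706 genes (42.2%) and was less than it for 73 (1.80%). Without retina P0.5 replicate 1 or 2 the larger count was 1077 or 963. Of the 1455 genes that rose in axons, 1189 had no P0.5 retina library at 1 FPKM and 173 had both at or above it. The P0.5 retina libraries held 1835 and 1668 genes at 1 FPKM in all, and the share over all genes tested was not counted. The 1189 are therefore not a result about the genes that rose. This comparison and the one with Cre-negative SC share the Cre-positive libraries and are not independent of each other. The filter read the Cre-positive SC libraries alone, so that the excess of 1706 over 73 is likewise set in part by it. With 1 FPKM required in at least 1 of those libraries of each stage, both counts against retina were 0.

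Among the genes that rose, the largest change was that of Cst3, which encodes the secreted protease inhibitor cystatin C (mm10 chromosome 2, 148871722 to 148875692). It had 0.230 and 0.699 FPKM in the Cre-positive libraries of E17.5 and 2236 and 1742 FPKM in those of P0.5, and 333 and 0 FPKM and 492 and 246 FPKM in the Cre-negative libraries. The stages did not overlap with Cre, but the Cre-negative libraries held the mRNA as well, and the rise of 10.42 ± 2.57 (SE, adjusted p = 0.0226) did not differ from the Cre-negative change beyond the spread (difference 6.16, adjusted p = 0.263). Ptgds, the prostaglandin D2 synthase (chromosome 2, 25466709 to 25470046), was listed at 0 in both E17.5 libraries and had 762 and 631 FPKM at P0.5. It too was present without Cre, at 6.11 and 11.4 FPKM and then 510.2 and 270.2 FPKM, and its rise with Cre was larger by 4.13 on the log2(FPKM + 1) scale (adjusted p = 0.0453). Cxx1c, a gene derived from a retrotransposon, had 0.168 and 0.101 FPKM and then 918 and 591 FPKM with Cre, and 0 in both E17.5 libraries and then 361 and 153 FPKM without Cre.

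Other genes among the largest rises differed in their levels without Cre. Vps28, a subunit of the ESCRT-I sorting complex (chromosome 15, 76622087 to 76626086), had 0.183 and 0.111 FPKM at E17.5 and 652 and 468 FPKM at P0.5 with Cre. Without Cre its levels went from 182 and 65.3 FPKM to 0 and 0.360 FPKM, and the difference between the changes was 15.48 ± 1.34 (SE, adjusted p = 0.00485). Dctpp1, a dCTP pyrophosphatase, was listed at 0 in both Cre-positive and both Cre-negative libraries of E17.5. At P0.5 it had 318 and 259 FPKM with Cre and 0 and 0.187 FPKM without (rise of 8.17 ± 0.70, adjusted p = 0.000712). Fez1, a kinesin adaptor needed for axon outgrowth, had 0.586 and 0 FPKM at E17.5 and 759 and 348 FPKM at P0.5 with Cre, against 28.4 and 4.66 FPKM without Cre at P0.5 (rise of 8.68 ± 1.48, adjusted p = 0.00587). The difference of Fez1 from the Cre-negative change was short of the threshold (6.63, adjusted p = 0.0604). Limch1, a regulator of actomyosin, went from 0.0905 and 3.18 FPKM to 991 and 521 FPKM, and Gna11, a G-protein alpha subunit of the Gq class, from 0.336 and 3.92 FPKM to 1995 and 687 FPKM. Without Cre at P0.5, Limch1 had 37.2 and 10.6 FPKM, and Gna11 had 511 and 107 FPKM, so that the change of Gna11 did not differ from that without Cre past the threshold (adjusted p = 0.122). Psmb6, a proteasome subunit, and Fth1, the ferritin heavy chain, completed the 10 largest rises. Both were high in Cre-negative E17.5 replicate 1, at 244 FPKM for Psmb6 and 257 FPKM for Fth1, and listed at 0 in replicate 2, and Fth1 had 318 and 177 FPKM without Cre at P0.5.

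Among the genes that fell, Abcc5, an ABC transporter (chromosome 16, 20331303 to 20426394), had 88.9 and 105 FPKM at E17.5 and 1.17 and 0.982 FPKM at P0.5 (change -5.56 ± 0.90, adjusted p = 0.00451). The Cre-negative libraries held 327 and 190.2 FPKM and 29.2 and 81.1 FPKM, and the 2 changes did not differ past the threshold (adjusted p = 0.106). P4hb, a protein disulfide isomerase of the endoplasmic reticulum (chromosome 11, 120560298 to 120573253), had 57.5 and 34.3 FPKM and then 0 and 0.0467 FPKM with Cre, and 20.5 and 36.1 FPKM and then 0 and 0.0357 FPKM without (difference -0.68, adjusted p = 0.741). Atp6v1g1, a subunit of the vacuolar proton pump, also fell with Cre, from 219 and 189.9 FPKM to 1.59 and 2.85 FPKM, beside 33.7 and 222 FPKM and 0.162 and 2.77 FPKM without.

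Also among the 10 largest falls, Tomm5, a subunit of the outer membrane translocase, had 193 and 72.9 FPKM at E17.5 and 0 and 0.232 FPKM at P0.5 with Cre, but 0 and 39.2 FPKM and then 257 and 127 FPKM without Cre (difference of the changes -11.59, adjusted p = 0.0212). Mrpl55, a mitochondrial ribosomal protein, had 32.6 and 43.6 FPKM and then 0 in both P0.5 libraries (difference from the Cre-negative change -4.54, adjusted p = 0.0173). Slc25a1, the mitochondrial citrate carrier, and Cisd3, an iron-sulfur protein of mitochondria, were at 199 and 8.73 FPKM and 304 and 6.85 FPKM at E17.5, a wide spread within the stage, and at or near 0 at P0.5. B4galt3, a galactosyltransferase, Dpm2, a subunit of dolichol-phosphate mannose synthase, and Babam1, a component of the BRCA1-A complex, were listed at 0 in both Cre-positive P0.5 libraries. Without Cre at P0.5 they had at most 0.0812 FPKM, and their changes did not differ from the Cre-negative ones past the threshold (adjusted p = 0.26, 0.353 and 0.591). Nor did those of Slc25a1 and Cisd3 (adjusted p = 0.0818 and 0.115), which were listed at 0 in all 4 Cre-negative libraries.

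Genes measured at 1 FPKM or more in all 4 Cre-positive libraries did not enter through one stage alone. There were 870 of them, of which 214 lay above at P0.5, 149 below, and 507 overlapped, with a median change of 0.29 in Cre-positive and -0.07 in Cre-negative SC. In the test over all genes 18 of them rose (2.07%) and 11 fell (1.26%), and 7 of these 29 also differed from the Cre-negative change. A test of only the 2193 genes with 1 FPKM in at least 1 Cre-positive library of each stage included these 870. There limma called 0 genes higher and 0 lower (smallest adjusted p = 0.155), so none of the 29 calls or 7 differences held in it. The genes named in this paragraph and the next were chosen after their values were seen. Dbn1, which encodes the actin-binding protein drebrin, went from 29.9 and 4.01 FPKM to 2508 and 1676 FPKM (rise of 7.37 ± 1.05, adjusted p = 0.00289). Without Cre it had 16.3 and 11.7 FPKM and then 439.8 and 283 FPKM, and the changes did not differ past the threshold (difference 2.79, adjusted p = 0.216). Mapk8ip2, a scaffold of JNK signalling, had 3.12 and 2.73 FPKM and then 216 and 89.3 FPKM with Cre, and its rise exceeded that without Cre by 5.62 (adjusted p = 0.0216). Sptbn1, a spectrin of the membrane skeleton, went from 12.2 and 28.1 FPKM to 593 and 395 FPKM, and Ppp1r9a, the actin-binding protein neurabin, from 18.6 and 2.06 FPKM to 489 and 387 FPKM. Without Cre at P0.5, Sptbn1 had 268 and 65.9 FPKM and Ppp1r9a 200.3 and 85.4 FPKM, and neither change differed from that without Cre past the threshold (adjusted p = 0.143 and 0.857). Otub1, a deubiquitinating enzyme, was the most abundant of the 29, with 3676 and 1244 FPKM at E17.5 and 31641 and 44392 FPKM at P0.5, and 16090 and 14233 FPKM without Cre at P0.5 (difference 1.48, adjusted p = 0.282).

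Of the 11 genes of this class that fell, Picalm, an endocytic clathrin adaptor, went from 39.4 and 49.0 FPKM to 3.10 and 3.54 FPKM, and Lef1, a transcription factor of Wnt signalling, from 41.2 and 57.7 FPKM to 2.47 and 4.66 FPKM. Lef1 was the only one of the 11 whose fall exceeded the change without Cre at an adjusted p under 0.05 (difference -4.89, adjusted p = 0.045). Myef2, a myelin gene repressor, had 363 and 848 FPKM at E17.5 and 50.1 and 64.8 FPKM at P0.5.

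Named gene groups were then read against the background of 36.0% higher and 2.92% lower. The lists were fixed by function with earlier results of these data known. A share near the background is not a result about the list, and no list was tested as a set. Shares and medians also depend on how many members entered through P0.5 alone, as 1651 of all 4046 genes did. A share away from the background is therefore no evidence about a list either.

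**Figure D4:**
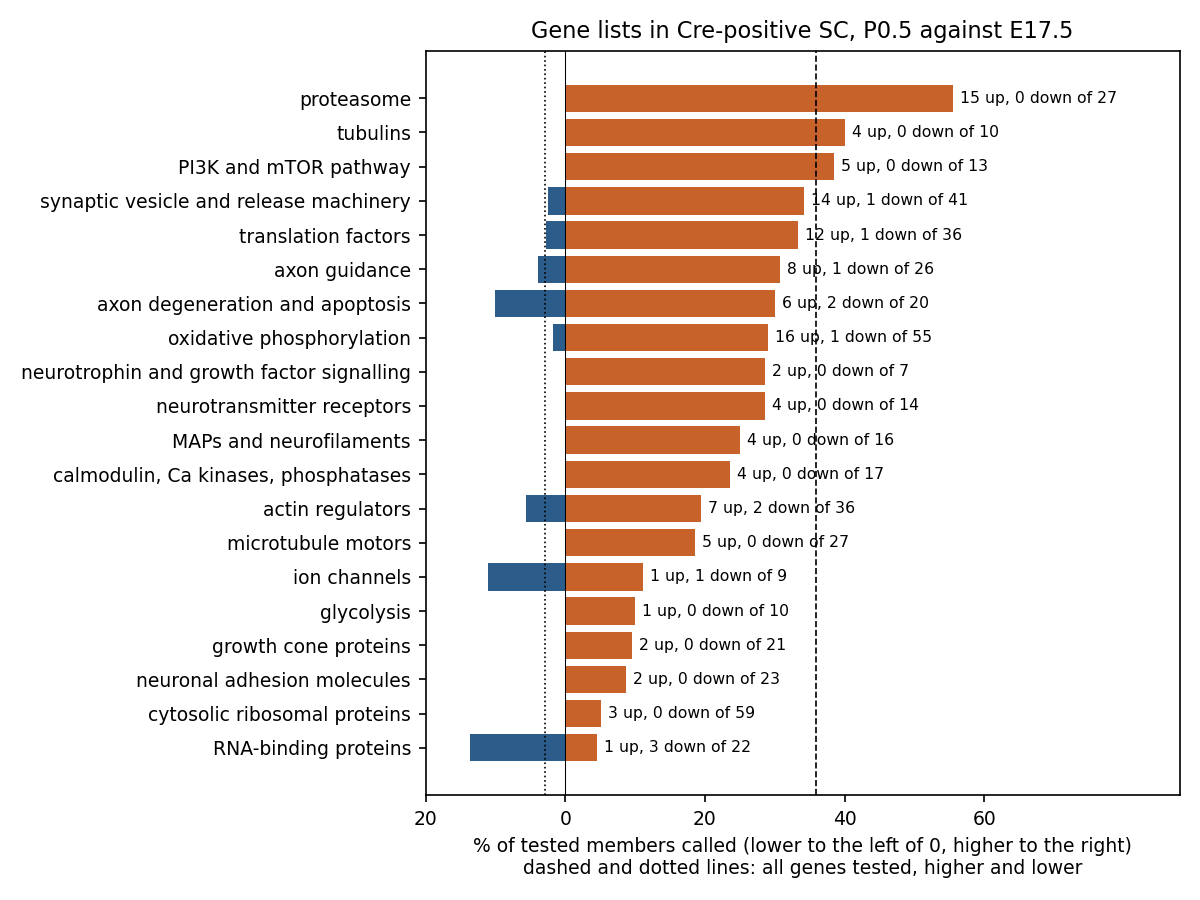
Share of the tested members of each of 20 gene lists called higher (orange, to the right) or lower (blue, to the left) at P0.5 than at E17.5 in Cre-positive SC, with the counts beside each bar and lines at the shares over all 4046 genes, 36.0% and 2.92%. The proteasome has the longest bar, 15 of 27, and 14 of the 27 entered through P0.5 alone. The growth cone proteins, adhesion molecules, ribosomal proteins and RNA-binding proteins have the lowest shares called higher. Of these lists, 3 of 21, 6 of 23, 7 of 59 and 0 of 22 members entered through P0.5 alone.

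Proteins of the growth cone, the motile tip of an axon, were mostly present at both stages. Of 26 listed, 21 passed the filter, 15 of them with 1 FPKM in both E17.5 libraries, and 2 rose and 0 fell. The median change of the 21 was 1.88, beside 2.27 over all genes. Only 3 of the 21 entered through P0.5 alone, so that the 2 medians are not like for like. Dpysl2, the collapsin response mediator CRMP2, was at 5130 and 7257 FPKM at E17.5 and 13552 and 12634 FPKM at P0.5, and 2430.1 and 4152 FPKM and then 15490 and 9810.1 FPKM without Cre (adjusted p = 0.133 with Cre). Gap43, a growth-associated membrane protein, had 186 and 4.98 FPKM at E17.5 and 211 and 134 FPKM at P0.5, so that the stages overlapped (adjusted p = 0.543). Without Cre, Gap43 had 125 and 0 FPKM at E17.5 and 182 and 130 FPKM at P0.5, so that its P0.5 levels with and without Cre overlapped. Stmn2, a stathmin that destabilizes microtubules, had 65.2 and 5.15 FPKM and then 587 and 408 FPKM with Cre, and 0.257 and 0.0976 FPKM at P0.5 without. Its stages did not overlap, the E17.5 replicates lay far apart, and the change of 4.603 ± 2.65 did not pass the threshold (adjusted p = 0.229). Marcks, a substrate of protein kinase C, had 3486 and 551 FPKM at E17.5 and 155 and 323 FPKM at P0.5 (adjusted p = 0.178). Without Cre, Marcks had 2742 and 387 FPKM and then 170 and 398 FPKM (difference -0.64, adjusted p = 0.856). The genes that rose were Fez1, given above, and Fez2, a homologue of it, which had 0.0724 and 0 FPKM and then 182 and 60.1 FPKM, at most 0.0599 FPKM without Cre at either stage, and a rise of 6.67 ± 0.75 (adjusted p = 0.00108).

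Tubulins form the microtubules of the axon shaft. Of 14 listed, 10 passed, 9 of them lay above at P0.5, and 4 rose and 0 fell (median change 4.54). Tubb4b, a beta-tubulin, had 0 and 0.763 FPKM at E17.5 and 209 and 76.5 FPKM at P0.5, and Tubb4a had 0.190 and 0.0754 FPKM and then 257 and 123 FPKM, while the highest Cre-negative value at P0.5 was 0.104 FPKM for Tubb4b and 0.144 FPKM for Tubb4a (rises of 6.59 ± 0.80 and 7.31 ± 1.11, adjusted p = 0.00145 and 0.00377). Tubb3, the neuronal beta-tubulin, was at 403 and 4.36 FPKM at E17.5 and 3059 and 1804 FPKM at P0.5 (adjusted p = 0.0931). Tubg1 and Tubg2, gamma-tubulins that nucleate microtubules, rose from 0 to 81.2 and 48.2 FPKM and 38.9 and 15.3 FPKM with Cre, and the Cre-negative libraries of P0.5 held 68.8 and 51.3 FPKM and 64.8 and 20.8 FPKM. Their changes with and without Cre did not differ past the threshold, with differences of 1.05 and -0.57 (adjusted p = 0.659 and 0.823). Tubulin genes are similar in sequence, and the split of fragments between them is uncertain.

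**Figure D5:**
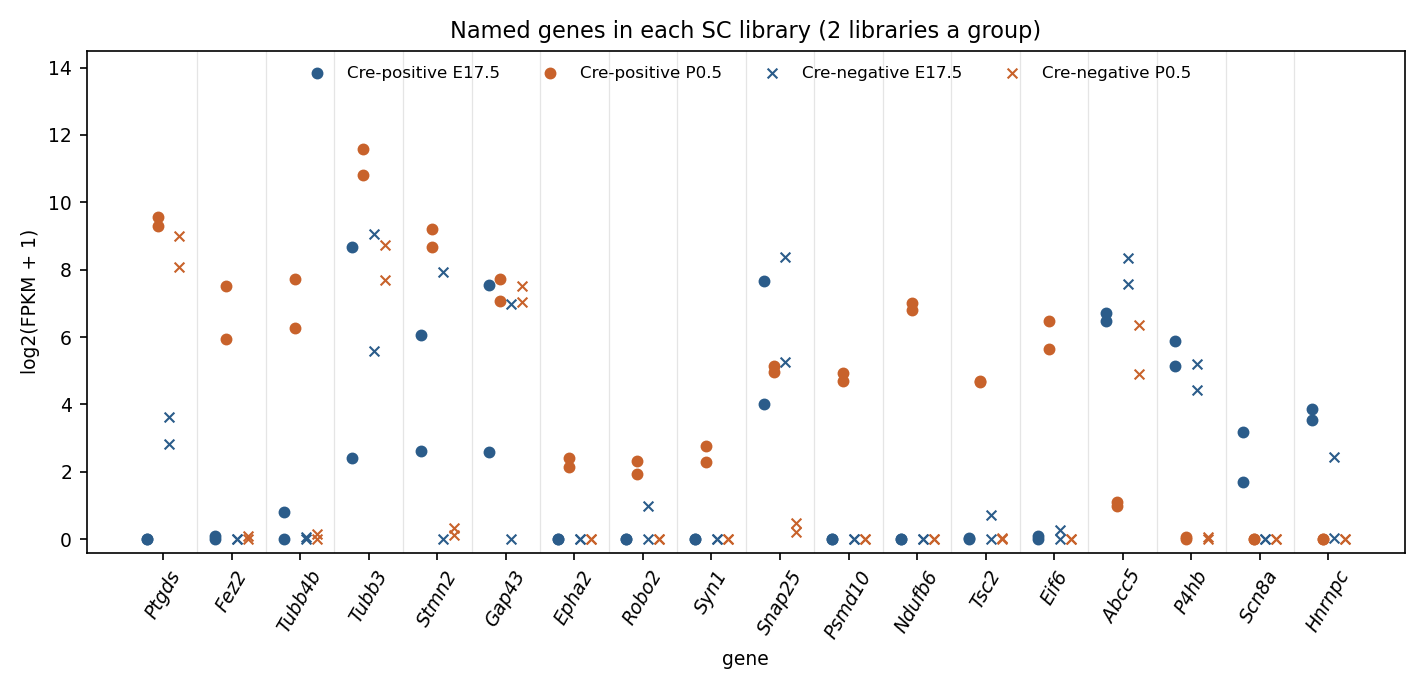
Level of 18 named genes as log2(FPKM + 1) in each SC library, with filled circles for Cre-positive and crosses for Cre-negative SC, blue for E17.5 and orange for P0.5, 2 libraries a group. Fez2, Tubb4b, Epha2, Robo2, Syn1, Psmd10 and Ndufb6 are highest in the Cre-positive P0.5 libraries, the 2 E17.5 libraries with Cre lie far apart for Gap43 and Tubb3, and Abcc5, P4hb, Scn8a and Hnrnpc are lower at P0.5 with Cre.

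Of 30 microtubule-associated proteins and neurofilaments, 16 passed, and 4 rose and 0 fell (median change 1.78). Map1a, a structural protein that links microtubules, was listed at 0 in both E17.5 libraries and had 16.3 and 6.201 FPKM at P0.5, and it had 0 and 0.0148 FPKM in the Cre-negative libraries of P0.5 (difference 3.47, adjusted p = 0.0119). Mapre2, a protein of microtubule plus ends, went from 0.268 and 0 FPKM to 9.28 and 4.15 FPKM, and Nefl, the light neurofilament, from 0.0711 and 0.0424 FPKM to 47.5 and 17.54 FPKM. Without Cre, Nefl had 12.7 and 0.0379 FPKM and then 4.22 and 2.82 FPKM, and the changes did not differ past the threshold (difference 4.59, adjusted p = 0.125). Map6, which stabilizes microtubules against cold, rose with Cre to 4.42 and 3.72 FPKM, but also stood at 5.82 and 7.13 FPKM in the Cre-negative libraries of P0.5. Mapt, the microtubule protein tau, had 47.9 and 4.27 FPKM and then 211 and 119 FPKM, without overlap (adjusted p = 0.2).

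Among 39 motor genes, 27 passed, and 5 rose and 0 fell (18.5%, median change 1.71). Dynein is the motor of retrograde transport, where 2 of 8 tested genes rose, and dynactin is its cofactor, where 2 of 10 rose. Of 9 kinesin genes 1 rose, Kifap3, which was named after its values were seen. Dctn6, a dynactin subunit, was listed at 0 at E17.5 and had 153 and 123 FPKM at P0.5, with at most 0.108 FPKM in any Cre-negative library (rise of 7.11 ± 0.63, adjusted p = 0.000712). Dctn1, the largest dynactin subunit, went from 0 and 0.0391 FPKM to 28.5 and 14.8 FPKM, Dync1i1, a dynein intermediate chain, from 0 and 0 FPKM to 33.6 and 5.74 FPKM, and Dynlt3, a light chain, from 0 and 0 FPKM to 13.8 and 9.69 FPKM. All 4 exceeded the Cre-negative change (adjusted p = 0.00485, 0.00645, 0.039 and 0.0426).

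Actin regulators shape the growth cone and its branches. Of 57, 36 passed, 19 of them with 1 FPKM in both E17.5 libraries, and 7 rose (19.4%) and 2 fell (5.56%), with a median change of 1.14. Actn1, an actin crosslinker, was listed at 0 in all SC libraries of these stages but those of Cre-positive P0.5, where it had 8.32 and 8.56 FPKM (rise of 3.24 ± 0.26, adjusted p = 0.000712). The values at 0 enter that SE and keep it small. Arpc3, a subunit of the branch-forming Arp2/3 complex, had 0 and 0 FPKM and then 204 and 143 FPKM, and Gsn, the severing protein gelsolin, 0 and 0 FPKM and then 57.8 and 23.0 FPKM. Actn4 went from 0 and 0.170 FPKM to 134 and 63.7 FPKM. The genes that fell, named after their values were seen, were Abi2, of the WAVE complex that activates Arp2/3, and Vasp, which promotes filament elongation. Abi2 went from 101 and 42.9 FPKM to 8.26 and 4.59 FPKM and Vasp from 3.49 and 5.02 FPKM to 0 and 0 FPKM. Without Cre, Abi2 went from 49.1 and 74.6 FPKM to 27.1 and 17.6 FPKM (difference -1.79, adjusted p = 0.368). The fall of Vasp did not differ from the Cre-negative change past the threshold either.

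Guidance receptors read the positional cues of the SC. Of 70 ligands and receptors, 26 passed the filter, 8 rose (30.8%) and 1 fell (3.85%), and 29 were listed at 0 in all 4 Cre-positive libraries. Among 7 Eph receptors that passed, 3 rose and 1 fell. Epha2 (mm10 chromosome 4, 141301240 to 141329384) was listed at 0 in every SC library but those of Cre-positive P0.5, where it had 3.38 and 4.27 FPKM (rise of 2.26 ± 0.20, adjusted p = 0.000712). Epha8 went from 0 and 0.628 FPKM to 6.24 and 6.42 FPKM and Epha4 from 0 and 0.0125 FPKM to 7.57 and 2.86 FPKM, and all 3 exceeded the Cre-negative change (adjusted p = 0.00485, 0.0108 and 0.0204). Epha7 moved the other way, from 1.22 and 1.05 FPKM at E17.5 to 0 in both P0.5 libraries (change -1.09 ± 0.13, adjusted p = 0.00132). These levels lay close to the 1 FPKM minimum. Epha5 was listed at 0 in all 4 Cre-positive libraries.

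Robo2, a receptor for the repellent Slit, had 0 and 0.00980 FPKM at E17.5 and 3.97 and 2.82 FPKM at P0.5, and 0.987 and 0 FPKM and 0 and 0 FPKM without Cre (rise of 2.12 ± 0.37, adjusted p = 0.00653; difference 2.61, adjusted p = 0.0154). The other guidance genes that rose, named after their values were seen, were the ligand Efnb3, the semaphorins Sema4a and Sema6a, and the semaphorin receptor Plxnb2. Plxnb2 had 0.0825 and 0.0245 FPKM and then 30.6 and 23.1 FPKM, and Sema6a 0.231 and 0.0915 FPKM and then 14.9 and 9.34 FPKM.

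Adhesion molecules hold axons together and form contacts with target cells. Of 46 listed, 23 passed and 2 rose and 0 fell, both of the immunoglobulin superfamily (8.70%, median change 0.96). Nfasc, which organizes the axon initial segment and nodes, had 0.0140 and 0.00830 FPKM and then 6.65 and 3.85 FPKM, and Cntn2, an axonal contactin, 0 and 0 FPKM and then 4.57 and 1.45 FPKM. Both were listed at 0 in all 4 Cre-negative libraries. Nlgn2, a neuroligin, had 40.4 and 2.38 FPKM at E17.5 and was listed at 0 in both P0.5 libraries, and its adjusted p of 0.0501 was just above the threshold.

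Genes of presynaptic terminals rose at about the background share. Of 64 listed, 41 passed, 26 of them lay above at P0.5, and 14 rose (34.1%) and 1 fell (2.44%), with a median change of 2.33. Syn1, the vesicle protein synapsin 1 (mm10 chromosome X, 20860511 to 20921004), was listed at 0 in both E17.5 libraries and in all Cre-negative libraries and had 5.86 and 3.87 FPKM at P0.5 (rise of 2.53 ± 0.25, adjusted p = 0.000796). Erc2, a scaffold of the active zone, went from 0 and 0.0130 FPKM to 3.66 and 2.33 FPKM, and Cplx1, a complexin that clamps release, from 0.836 and 0 FPKM to 17.7 and 7.76 FPKM. Syt5, a synaptotagmin, had 0 and 0.985 FPKM at E17.5 and 89.2 and 46.5 FPKM at P0.5 with Cre, and 8.61 and 4.05 FPKM and then 0 in both libraries without (difference 8.34, adjusted p = 0.00559). Among the other vesicle genes that rose, those named after their values were seen were Vamp2, with 0 and 0 FPKM and then 12.3 and 9.30 FPKM, and Sv2a, with 2.63 and 0 FPKM and then 35.1 and 15.9 FPKM. Vamp4, a SNARE of the endosomal pathway named on the same ground, fell from 24.7 and 4.82 FPKM to 0 and 0 FPKM. Snap25, a SNARE of vesicle fusion, had 202 and 15.1 FPKM at E17.5 and 30.2 and 34.1 FPKM at P0.5, so that the stages overlapped (adjusted p = 0.759), while the Cre-negative libraries had 332 and 37.2 FPKM and then 0.152 and 0.390 FPKM (difference 5.69, adjusted p = 0.111).

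Receptors and channels set how a terminal responds to signals. Of 53 neurotransmitter receptor subunits 14 passed, and 4 rose and 0 fell (28.6%), while of 45 ion channels 9 passed, and 1 rose and 1 fell. Grm2, a metabotropic glutamate receptor, had 0 and 0.0490 FPKM and then 17.6 and 9.69 FPKM, and Grin1, the obligatory NMDA receptor subunit, 0 and 0.0210 FPKM and then 12.1 and 12.8 FPKM. Without Cre, Grin1 had 9.53 and 3.88 FPKM and then 0 in both libraries (difference 6.57, adjusted p = 0.00516). Chrna6, a nicotinic receptor subunit known from RGCs, went from 0 to 10.5 and 2.39 FPKM with Cre and was listed at 0 without Cre (rise of 2.64 ± 0.56, adjusted p = 0.0128), and its difference from the Cre-negative change had an adjusted p of 0.0506. Gabra2, a GABA-A receptor subunit, went from 0 and 0.0349 FPKM to 20.4 and 2.09 FPKM. The potassium channel gene Kcna6 rose from 0 and 3.16 FPKM to 36.2 and 15.9 FPKM. Neither Gabra2 nor Kcna6 differed from its Cre-negative change past the threshold. Scn8a, a sodium channel of axon initial segments and nodes, fell from 8.06 and 2.26 FPKM to 0 in both P0.5 libraries (change -2.44 ± 0.47, adjusted p = 0.00935).

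Of 29 genes for calmodulin and calcium-dependent enzymes and sensors, 17 passed, 12 of them lay above at P0.5, and 4 rose and 0 fell (23.5%, median change 2.23). Hpca, the calcium sensor hippocalcin, had 0 and 0 FPKM and then 178 and 78.2 FPKM with Cre and 0.566 and 0.388 FPKM without Cre at P0.5. Camk4, a calmodulin-dependent kinase, reached 1.10 and 1.21 FPKM, and Prkca, a protein kinase C, went from 1.04 and 0 FPKM to 5.04 and 5.45 FPKM. Ncald, a neuronal calcium sensor, rose to 27.5 and 17.3 FPKM and stood at 19.2 and 12.1 FPKM without Cre (difference 1.65, adjusted p = 0.478).

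The PI3K and mTOR pathway couples growth signals to translation, with the TSC complex holding the small GTPase Rheb, and thereby mTOR, in check. Of 38 genes 13 passed, and 5 rose and 0 fell (38.5%, median change 2.56). Tsc2 (mm10 chromosome 17, 24595816 to 24632630) had 0.0217 and 0 FPKM and then 24.7 and 24.5 FPKM with Cre, and at most 0.652 FPKM in any Cre-negative library (difference 5.01 ± 0.67, adjusted p = 0.00485). Rheb went from 0 and 0.0577 FPKM to 12.6 and 1.71 FPKM, and Akt1s1, the mTORC1 inhibitor PRAS40, from 0.885 and 0 FPKM to 82.0 and 52.2 FPKM. Eif4e, the cap-binding protein, went from 1.49 and 0.0570 FPKM to 16.3 and 4.28 FPKM, and the rises of Rheb and Eif4e did not differ from the Cre-negative changes past the threshold (adjusted p = 0.11 and 0.0984). Lamtor1, which anchors mTORC1 at lysosomes and was named after its values were seen, went from 0 and 0.0772 FPKM to 46.1 and 16.6 FPKM. Mtor itself was at 0.0154 and 0 FPKM at E17.5 and listed at 0 in both P0.5 libraries, and did not pass the filter.

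Of 34 genes of growth factor signalling 7 passed the filter, and 2 rose and 0 fell. Igf2, an insulin-like growth factor, went from 0.0736 and 0 FPKM to 96.9 and 58.3 FPKM with Cre and from 0 and 2.88 FPKM to 63.4 and 27.3 FPKM without. Map2k2, the kinase MEK2, rose with Cre to 68.3 and 49.1 FPKM and had 50.7 and 57.4 FPKM without Cre at P0.5, and neither change differed from the Cre-negative one past the threshold (adjusted p = 0.454 and 0.958). Ntrk2, the receptor for brain-derived neurotrophic factor, had 30.1 and 0.891 FPKM at E17.5 and was listed at 0 in both P0.5 libraries, and did not pass the filter.

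Ribosomal proteins build the ribosome itself. Of 82 genes for cytosolic ribosomal proteins 59 passed, 33 lay above and 0 below at P0.5, and 3 rose (5.08%), and the median change was 2.85. Through P0.5 alone, 7 of the 59 entered. Rplp1, a protein of the ribosomal stalk, was close to the threshold, with 64.6 and 31.3 FPKM at E17.5 and 1853 and 1246 FPKM at P0.5, and 2244 and 77.8 FPKM and 111 and 61.3 FPKM without Cre (adjusted p = 0.0508). The 3 that rose were Rpl3, from 0 and 2.10 FPKM to 70.1 and 32.7 FPKM, Rps15a, from 0 and 0 FPKM to 5.80 and 4.89 FPKM, and Rpl30, from 0 and 0.000400 FPKM to 52.9 and 29.2 FPKM. Rpl30 was also high without Cre at P0.5, at 55.9 and 8.56 FPKM. Ribosomal protein genes have many processed copies in the genome, and the assignment of their fragments is uncertain.

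Of 54 translation factors 36 passed, and 12 rose (33.3%) and 1 fell (2.78%), with a median change of 2.46. Eif6, which keeps the large subunit free until it is mature, had 0 and 0.0589 FPKM and then 88.3 and 48.6 FPKM, and at most 0.211 FPKM in any Cre-negative library (rise of 6.01 ± 0.60, adjusted p = 0.000807). Etf1, the release factor that ends translation, went from 0 and 0.0218 FPKM to 9.10 and 5.42 FPKM, Eif3c, a subunit of the initiation factor eIF3, from 0 and 0.171 FPKM to 25.2 and 13.1 FPKM, and Eef1d, an exchange factor for elongation, from 0 and 0.0531 FPKM to 8.07 and 2.97 FPKM. Further eIF3 subunits that rose, named after their values were seen, were Eif3d, Eif3f, Eif3h, Eif3l and Eif3m. Eif1a, which scans for the start codon, was the factor that fell and was also named after its values were seen, going from 21.7 and 21.6 FPKM to 0 and 0 FPKM. Its fall did not differ from the Cre-negative change past the threshold.

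The mRNAs of ribosomal proteins and of several translation factors begin with a run of pyrimidines, the 5′ terminal oligopyrimidine tract through which mTOR controls their translation. The starts of Rps15a and Eif3f, which rose, and of Rps18, a ribosomal protein that lay above at P0.5 with 2.25 and 17.6 FPKM and then 483 and 204 FPKM without passing the test (adjusted p = 0.131), are given here to show that tract and were chosen after their values were seen. Each runs from 15 bases before to 15 bases from the RefSeq start on, in GRCm38.p6 (the assembly of mm10), 5′ to 3′ on the strand of the gene, and the capitals mark the uninterrupted run of C and T from the first transcribed base.
Rps15a, chr7:118116133-118116162, minus strand: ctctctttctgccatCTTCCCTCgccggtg
Eif3f, chr7:108934400-108934429, plus strand: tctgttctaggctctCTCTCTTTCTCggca
Rps18, chr17:33955651-33955680, minus strand: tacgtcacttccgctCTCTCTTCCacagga

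A start was counted as pyrimidine-rich when a C at the first base was followed by 4 or more bases that were each C or T, on the transcribed strand only. This held for 3.01% of 27025 genes with a RefSeq start, for 15 of 61 genes for ribosomal proteins (24.6%) and for 0 of 28 proteasome genes. Of the 4046 genes tested, 3134 had a start in RefSeq under the same symbol, and 112 of these (3.57%) had such a start. Of those 112 genes 40 rose (35.7%) and 5 fell, beside 1085 of 3022 other genes (35.9%) that rose and 87 that fell. A single RefSeq start per transcript may miss the start in use, and the match is a description of these letters.

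RNA-binding proteins carry, store and silence mRNAs. Of 49 listed 22 passed, 18 of them with 1 FPKM in both E17.5 libraries, and 1 rose (4.55%) and 3 fell (13.6%). The median change was -0.88, beside 2.27 over all genes and 0.29 over the 870 genes at 1 FPKM in all 4 libraries. Of the 22, 0 entered through P0.5 alone, as 1651 of all 4046 genes did. The gap from all genes is therefore no evidence about the list. Tial1, a stress granule protein, fell from 109.7 and 340 FPKM to 12.1 and 8.57 FPKM with Cre and stood at 95.2 and 289 FPKM and 6.43 and 18.6 FPKM without (difference -0.33, adjusted p = 0.912). Hnrnpc, a nuclear protein that binds new transcripts, fell from 13.5 and 10.5 FPKM to 0 in both P0.5 libraries, and Purb, a component of transport granules, from 6.33 and 1.74 FPKM to 0.0352 and 0.321 FPKM. Neither of these falls differed from the Cre-negative change past the threshold. The list's median change without Cre was -1.28.

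The respiratory chain supplies the ATP of the terminal. Of 78 genes 55 passed, 38 lay above at P0.5, and 16 rose (29.1%) and 1 fell (1.82%), with a median change of 4.46 in Cre-positive and -2.21 in Cre-negative SC. In complex I, the entry point for electrons from NADH, 9 of 24 genes rose. Ndufb6 and Ndufs8, subunits of complex I, and Uqcrq, of complex III, were listed at 0 in the Cre-positive libraries of E17.5 and in all Cre-negative libraries. At P0.5 they had 129 and 111 FPKM, 94.7 and 47.2 FPKM and 158 and 86.9 FPKM with Cre (rises of 6.91 ± 0.61, 6.09 ± 0.60 and 6.89 ± 0.65, adjusted p = 0.000712, 0.000795 and 0.000733). Ndufv3, another subunit of complex I, rose to 136 and 139 FPKM but was higher without Cre, at 378 and 333 FPKM. Atp5o, a stalk protein of the ATP synthase, had 0.218 and 1.19 FPKM and then 178 and 132 FPKM with Cre, and 203 and 22.8 FPKM and then 0 in both libraries without (difference 12.69 ± 1.76, adjusted p = 0.00516). Uqcr10, of complex III, had 0.495 and 2.79 FPKM and then 97.8 and 62.7 FPKM with Cre, short of the threshold (adjusted p = 0.0592), and 622 and 21.3 FPKM and then 0 in both libraries without (difference 11.94, adjusted p = 0.0146). Cox5a, of complex IV, named after its values were seen, was the one that fell, from 37.1 and 18.9 FPKM to 0 and 0 FPKM, and none of the 10 complex IV genes that passed rose. The fall of Cox5a did not differ from the Cre-negative change past the threshold.

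Glycolysis was represented by 10 of 16 genes, of which 1 rose and 0 fell. Pfkm, the rate-setting phosphofructokinase, went from 0 in both E17.5 libraries to 14.4 and 20.2 FPKM, with at most 1.47 FPKM in any Cre-negative library (difference 4.83, adjusted p = 0.00745). Aldoa, an aldolase, had 0.101 and 0.544 FPKM and then 149.9 and 115 FPKM, but Cre-negative E17.5 replicate 1 held 168.5 FPKM (adjusted p = 0.066).

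The proteasome degrades ubiquitin-tagged proteins. Of 34 genes 27 passed, 22 lay above and 0 below at P0.5, and 15 rose (55.6%) and 0 fell. The median change was 4.98 in Cre-positive SC, -0.90 in Cre-negative SC and -0.77 in retina, and 14 of the 27 had both P0.5 and neither E17.5 library at 1 FPKM, so that they had to be higher at P0.5, as did 1651 of all 4046 genes. The share called is therefore no evidence about the list. In the catalytic 20S core 7 of 12 genes rose. Psma5 and Psmb2, of the core, were listed at 0 in both Cre-positive libraries of E17.5 and had 24.9 and 13.6 FPKM and 27.4 and 11.3 FPKM at P0.5, and Psma1 went from 0 and 0.289 FPKM to 51.9 and 27.4 FPKM. In the 19S regulatory cap, which unfolds substrates, 1 of 4 ATPase and 7 of 11 other subunits rose. Psmd10, a chaperone of cap assembly (mm10 chromosome X, 140948429 to 140956728), went from 0 to 29.8 and 24.9 FPKM and was listed at 0 in all Cre-negative libraries (rise of 4.82 ± 0.40, adjusted p = 0.000712). The change exceeded that without Cre for 13 of the 27 proteasome genes, beside 30.0% of all genes tested, and that in retina for 17, beside 42.2%.

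Genes of axon degeneration and apoptosis moved in both directions in Cre-positive SC. Of 41 listed 20 passed, and 6 rose (30.0%) and 2 fell (10%), with a median change of 0.67. The members of the mitochondrial death pathway that rose were Bad and Bid, which promote death within the Bcl-2 family, and Apaf1, the core of the apoptosome. Bad had 0 and 0.102 FPKM and then 22.1 and 32.5 FPKM, Bid 0 and 0 FPKM and then 59.3 and 16.2 FPKM, and Apaf1 0 and 0.0121 FPKM and then 5.28 and 3.18 FPKM, and all 3 were listed at 0 in every Cre-negative library (rises of 4.73, 5.01 and 2.35, adjusted p = 0.000712, 0.0022 and 0.000993). Bax, a pore-forming member named after its values were seen, went from 0 and 18.8 FPKM to 174 and 163 FPKM. Capn2, a calpain that cleaves the axonal cytoskeleton, rose from 0 and 0.0513 FPKM to 15.8 and 4.74 FPKM. The genes that fell, likewise named after their values were seen, were Casp6, the caspase of axon pruning, from 27.9 and 3.04 FPKM to 0 and 0 FPKM, and Birc6, an inhibitor of apoptosis, from 101 and 279.8 FPKM to 9.47 and 12.5 FPKM. Without Cre, Birc6 went from 80.9 and 268 FPKM to 14.7 and 42.4 FPKM (difference -1.33, adjusted p = 0.597). The fall of Casp6 did not differ from the Cre-negative change past the threshold either. Sarm1, which drives axon degeneration after injury, had 0.426 and 16.7 FPKM at E17.5 and 79.9 and 36.6 FPKM at P0.5 with Cre (adjusted p = 0.0988).

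Some markers of other cells of the SC rose as well. Of 13 markers of midbrain neurons 4 passed and 2 rose, Sox14, from 0 to 40.5 and 11.0 FPKM, and Pax7, from 0 to 6.23 and 7.45 FPKM, while Gad2 and Slc32a1 were listed at 0 at P0.5 with Cre. Sox14 and Pax7 encode transcription factors of the midbrain and were listed at 0 in every Cre-negative library. Of 12 markers of astrocytes or radial glia 7 passed, and 3 rose and 0 fell. Aldh1l1, 1 of the 3, went from 0 and 0.0265 FPKM to 19.9 and 18.2 FPKM, beside 0 and 0.0289 FPKM without Cre at P0.5. Sox9 went the other way without overlap, from 144.9 and 99.6 FPKM to 44.7 and 62.6 FPKM, and was not called. The summed level of the 12 markers was 142 to 208 FPKM at E17.5 and 302 to 460 FPKM at P0.5 with Cre. Without Cre it was 237 to 408 FPKM at E17.5 and 464 to 521 FPKM at P0.5. Of 10 markers of the oligodendrocyte lineage 3 passed and 3 rose, with summed levels of 0.0601 and 7.41 FPKM at E17.5 and 108.7 and 92.6 FPKM at P0.5. Without Cre the sums were 60.2 and 13.7 FPKM at E17.5 and 89.2 and 49.5 FPKM at P0.5. All 11 microglia markers were listed at 0 in both Cre-positive P0.5 libraries, and the myelin genes Mog and Mag were at 0 there too. The summed level of the 13 midbrain markers was 452 and 586 FPKM at E17.5 and 584 and 197 FPKM at P0.5 with Cre. Without Cre it was 92.7 and 382 FPKM and then 1194 and 333 FPKM. The part of these cells in the rises given above was not tested.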

How the data were processed

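HA-precipitated, poly(A)-selected RNA was amplified by PCR and sequenced. Per the submitters' processing notes, TopHat2 2.0.12, Cufflinks 2.2.1 and HTSeq 0.6.1p1 were used with mm10. The authors deposited FPKM values, 1 file per library, and no counts were used here. Low FPKM values gave an estimated 6293000 to 12102000 fragments in the Cre-positive libraries, so small values are imprecise.

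Values were taken as log2(FPKM + 1) for genes with at least 1 FPKM in 2 of the 4 Cre-positive libraries. A model over 8 SC libraries (4 residual degrees of freedom), and another with retina, was fitted by limma 3.58.1 in R 4.3.3 with Benjamini-Hochberg adjustment over all genes tested and a threshold of 0.05. An exact permutation test of 2 against 2 libraries cannot go below p = 0.333. The scripts were tested on simulated data. Coordinates are from GENCODE for GRCm38, where 22692 of 23995 symbols matched. Left out were 4 genes with a missing entry, Actb among them, and 8 files that belong to none of these comparisons.

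Named genes were the 10 largest rises and falls past the threshold, the 5 largest differences from Cre-negative SC in each direction, up to 4 members of each list by smallest p, and 12 genes named always. Others are said to be chosen after their values were seen. The members, lists and tests were chosen with earlier results of these data known. Alternatives covered the pseudocount, filter, scaling, samples fitted, library weights, replicate block and each library left out. A few members of the lists are not reported here by name.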

Additional observations from a re-analysis of the deposited data

Results flagged for a closer look

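The change from E17.5 to P0.5 differed between Cre-positive and Cre-negative SC, by the test of the difference itself, for 1215 genes in the higher and 38 genes in the lower direction. It differed between Cre-positive SC and retina for 1706 genes in the higher and 73 in the lower direction. With the requirement of 1 FPKM in at least 1 Cre-positive library of each stage, none of these 4 counts was above 0 by limma, with 236 and 10 genes against Cre-negative SC and 247 and 13 against retina at an unadjusted p under 0.05.

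The largest differences between the changes with and without Cre, on the log2(FPKM + 1) scale, were those of genes whose levels moved in opposite directions. For Vps28 the difference was 15.48. Acot7, an acyl-CoA thioesterase, was listed at 0 at E17.5 and had 216 and 98.9 FPKM at P0.5 with Cre, while without Cre it had 313 and 33.9 FPKM and then 0 in both libraries, a difference of 13.91. The differences were 12.69 for Atp5o, 12.33 for Psmb6 and 11.94 for Uqcr10. In Cre-negative SC of E17.5 each gene named in this paragraph was higher in replicate 1, the shallowest library, than in replicate 2.

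In the other direction the difference was -11.59 for Tomm5. Vbp1, a subunit of the chaperone prefoldin, had 10.02 and 13.9 FPKM and then 0 in both libraries with Cre, and 0 and 0.0488 FPKM and then 167 and 54.9 FPKM without, a difference of -10.25. The differences were -8.85 for Vmp1, an autophagy protein, -8.46 for Oprl1, the nociceptin receptor, and -7.80 for Npdc1, a neural protein. The E17.5 libraries of a group often differed several-fold in these genes, and the part of amplification was not tested.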

How the results depend on the processing

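The counts below are, in order where several are given, genes that rose and that fell with Cre, genes that rose more and less than in Cre-negative SC, and genes that rose more and less than in retina. Without a filter on low values 64 genes fell, 641 rose more than in Cre-negative SC, 21 rose less than in retina, and 748 lay below without overlap. With a mean of at least 5 FPKM the counts were 940, 53, 737, 11, 1117 and 33, from fewer genes tested. Median-ratio scaling gave 118 genes that rose less than in retina. The fit over all 16 SC libraries called 71 genes higher and 44 lower in Cre-negative SC. With 1 FPKM required in at least 1 library of each stage, chosen after seeing the data, all 6 counts were 0, and 693 genes lay above and 191 below. Leaving out both E17.5 SC libraries numbered 1, also chosen after seeing the data, gave 281 genes lower, 145 and 300 in Cre-negative SC, 120 and 142 that rose less than in Cre-negative SC and retina, and 714 below. Leaving out both numbered 2 gave 390, 134 and 944, 201 and 223, and 1002.

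Leaving out 1 library at a time, a single library in a group being assumed to vary like the others, gave 1048 to 1850 genes higher and 35 to 179 lower, 0 to 77 and 0 to 532 in Cre-negative SC, 436 to 1568 and 4 to 99 against Cre-negative SC, and 963 to 2077 and 11 to 223 against retina. Without overlap, 2405 to 3008 lay above and 494 to 1002 below. The highest Cre-negative counts, 77 and 532, came without Cre-negative E17.5 replicate 2.

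The labels do not tie replicate numbers to litters, and with 2 pairs a stage they share only a number. The differences between replicates 1 and 2 correlated at 0.44 between Cre-positive and Cre-negative SC at E17.5 and at 0.48 at P0.5. A replicate block over all groups gave 1451 and 109, 0 and 0 in Cre-negative SC, 1171 and 31, and 1585 and 50. A block within stage gave 1280 and 50, and 1754 and 67. The cause of the changes was not tested. Of 93 named genes that were called, 39 lost the call when a library was left out and 37 under another setting, not counting the settings chosen after seeing the data, which were not run gene by gene.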

Other observations

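The near-identical beta-globin genes Hbb-bs and Hbb-b1 alternated between libraries. Hbb-bs had 734 and 0.0213 FPKM at E17.5 and 0.0347 and 136 FPKM at P0.5 in the Cre-positive libraries, where Hbb-b1 had 0 and 16.8 FPKM and then 125 and 0.0164 FPKM. The assignment of fragments between such copies is uncertain.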
